A study of Mus musculus with 15 samples.

Results

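The alpha-crystallin genes of the mouse, Cryaa and Cryab, were examined in 9 lists of ChIP-seq regions, together with Hspb2, which lies head to head with Cryab. The 3 genes were chosen by name. A region was included when at least 1 bp of it lay in a window made of the gene body and 50 kb on each side, in the mm9 assembly. The Cryaa window (chr17:31764878-31868667, ENSMUSG00000024041.7) held 46 regions and the window of Cryab (ENSMUSG00000032060.8) and Hspb2 (ENSMUSG00000038086.3), chr9:50509177-50614738, held 60, which makes 106 of the 291642 regions of the 9 lists. 8 lists came from αTN4, a line of mouse lens epithelium that carries the SV40 T antigen. Control shRNA cells gave lists for the transcription factor Pax6, for RNA polymerase II (Pol2) and for H3K4me1, H3K4me2 and H3K4me3, and cells with an shRNA against Pax6 (Pax6 KD) gave lists for the 3 methylation marks. Both were pooled populations of stably infected cells kept under puromycin for 14 days, and the study's methods give the second of its Pax6 constructs for the KD ChIP. The ninth list was H3K4me2 of whole newborn lens from CD-1 mice at P1, 1 day of age, a tissue of fibre and epithelial cells. Each condition had 1 library, so no difference between conditions has a replicate check and none is tested. One label field names the Pax6 and Pol2 antibodies the other way round, and these libraries were taken by their titles. The RNA-seq and input samples were not analysed here.

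Alpha-crystallins are small heat shock proteins. They make up much of the protein of the lens, where they keep other proteins from aggregating and help to keep the tissue clear. Cryaa is largely restricted to the lens, whereas Cryab is also made in muscle, heart and glia and is induced by stress. Pax6, Maf and CREB are known to act on the Cryaa promoter, and Pax6, Maf, retinoic acid receptors and heat shock factors on Cryab. Hspb2 is a small heat shock protein of muscle. H3K4me3 marks active promoters, H3K4me1 marks enhancers and the flanks of promoters, and H3K4me2 marks both. The αTN4 line was derived from mice in which a promoter fragment of the mouse Cryaa gene drives the T antigen. Reads from that fragment carry the Cryaa promoter sequence, so reads of the transgene and of the gene itself cannot be told apart in these lists, and every αTN4 value at this promoter may hold both.

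The sequences on which the results turn are given first, from the mm9 reference (NCBIM37) and on the strand of the genes. The Cryaa promoter is printed because the local background differed there between the line and the lens. The Cryab promoter is printed because it lies in the stretch that H3K4me3 left uncovered between Hspb2 and Cryab. A 239 bp lens H3K4me2 peak upstream of Cryaa is printed because αTN4 peaks covered it as well. Capitals mark matches, on either strand, to TATANA (the TATA box), TGCTGA (Maf half-site), TGACG (cyclic AMP response half-site), ACAANG (Sox), TGANTCA (AP-1) and GAANNTTC (the heat shock element).
Cryaa, 300 bases before the start, chr17:31814578-31814877, plus strand: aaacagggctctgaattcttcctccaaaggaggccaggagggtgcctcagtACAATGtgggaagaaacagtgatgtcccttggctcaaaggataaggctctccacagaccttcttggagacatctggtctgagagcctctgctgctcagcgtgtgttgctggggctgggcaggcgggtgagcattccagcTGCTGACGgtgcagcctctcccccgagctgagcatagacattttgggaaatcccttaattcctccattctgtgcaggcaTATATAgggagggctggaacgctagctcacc
Cryab, 300 bases before the outermost start, chr9:50560563-50560862, plus strand: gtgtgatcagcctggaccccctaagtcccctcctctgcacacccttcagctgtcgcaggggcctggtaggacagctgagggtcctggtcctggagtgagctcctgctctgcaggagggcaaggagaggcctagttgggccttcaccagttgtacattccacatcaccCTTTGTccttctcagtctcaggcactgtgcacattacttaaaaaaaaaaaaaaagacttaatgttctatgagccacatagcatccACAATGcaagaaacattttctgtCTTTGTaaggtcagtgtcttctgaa
Cryaa upstream lens peak, chr17:31807193-31807431, plus strand: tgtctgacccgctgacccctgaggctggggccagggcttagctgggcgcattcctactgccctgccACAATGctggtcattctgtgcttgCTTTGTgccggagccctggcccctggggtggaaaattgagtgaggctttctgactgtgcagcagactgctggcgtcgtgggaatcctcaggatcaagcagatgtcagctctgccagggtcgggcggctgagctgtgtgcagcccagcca

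The Cryaa promoter held 4 of the 6 motifs. A TATA box lay 31 to 26 bases before the start, and it reads as a match on both strands. A Maf half-site (110 to 105 bases before the start) overlapped a cyclic AMP response half-site (107 to 103). A Sox match lay 249 to 244 bases before the start. Among 22359 protein-coding genes, 25.4% had a TATANA, 17.6% a TGCTGA, 21.4% a TGACG and 39.4% an ACAANG in the same 300 bases. The heat shock element, which 7.76% of promoters held, and the AP-1 motif, which 7.004% held, had no match. The 300 bases before Cryab had 3 Sox matches and no other. Annotated Cryab transcripts also start 0.262 kb and 0.567 kb after the outermost start, beyond this stretch. The upstream lens peak had 2 Sox matches, where 38.7% of 56214 windows of 239 bp centred on lens summits had at least 1. A match is a description of these letters only.

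No Pax6 peak of the control cells lay in either window. Nor did any lie within 2 kb of a start of Cryaa, Cryab or Hspb2, where 0.255% of the 22359 protein-coding genes had one. The nearest Pax6 summit to Cryaa was 2.01 Mb away (chr17:29808242-29808451) and that to Cryab 3.18 Mb away (chr9:47383140-47383297). Of all genes on the chromosomes with a Pax6 peak, 52.3% had a nearer summit than Cryaa and 65.5% a nearer one than Cryab. The list holds 504 peaks, and 2.72% of genes had a summit within 50 kb of a start.

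Cryaa lies on chromosome 17 from 31814878 to 31818667 on the plus strand and carried Pol2 and all 3 methylation marks in control αTN4 cells. The Pol2 peak ran from 321 bp before to 938 bp after the start, with its summit 163 bp before the start. Its fold enrichment of 8.24 put it at the 42.6th percentile of the Pol2 list. U2af1, which encodes a splicing factor subunit and starts 19.2 kb upstream, had a Pol2 peak of fold 26.5 at the 93.6th percentile.

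H3K4me2 covered most of Cryaa in the line. In control cells 1 peak of 4379 bp ran from 1093 bp before to 3285 bp after the start and covered 86.7% of the gene. In Pax6 KD cells the peak was 3707 bp long and covered 78.4%. In lens 5 separate peaks of 274 to 832 bp, with folds of 3.42 to 5.53, lay over the gene or just before its start. Together they covered 51.2% of the gene, and the peak wholly before the start covered none of it. The line therefore had 1 unbroken domain where the lens had 5 short peaks. The strongest lens peaks, both at the 42.1st percentile, flanked the start, at 652 to 151 bp before it and 87 to 918 bp after it.

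H3K4me3 at Cryaa was low in rank by fold enrichment in both conditions. Control cells had a peak of fold 9.78 at 457 to 56 bp before the start (the 26.1st percentile) and a peak of fold 4.505 at 56 to 539 bp after it (the 1.66th percentile). The 111 bp between them held the start. A start with a peak within 2 kb but not over it was common, since 38.1% of such starts in control cells and 48% in KD cells had none over them. Pax6 KD cells had 1 peak of 1760 bp over the start, from 480 bp before to 1279 bp after it, with a fold of 9.48 at the 33rd percentile. H3K4me1 covered the whole gene in both conditions.

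**Figure D1:**
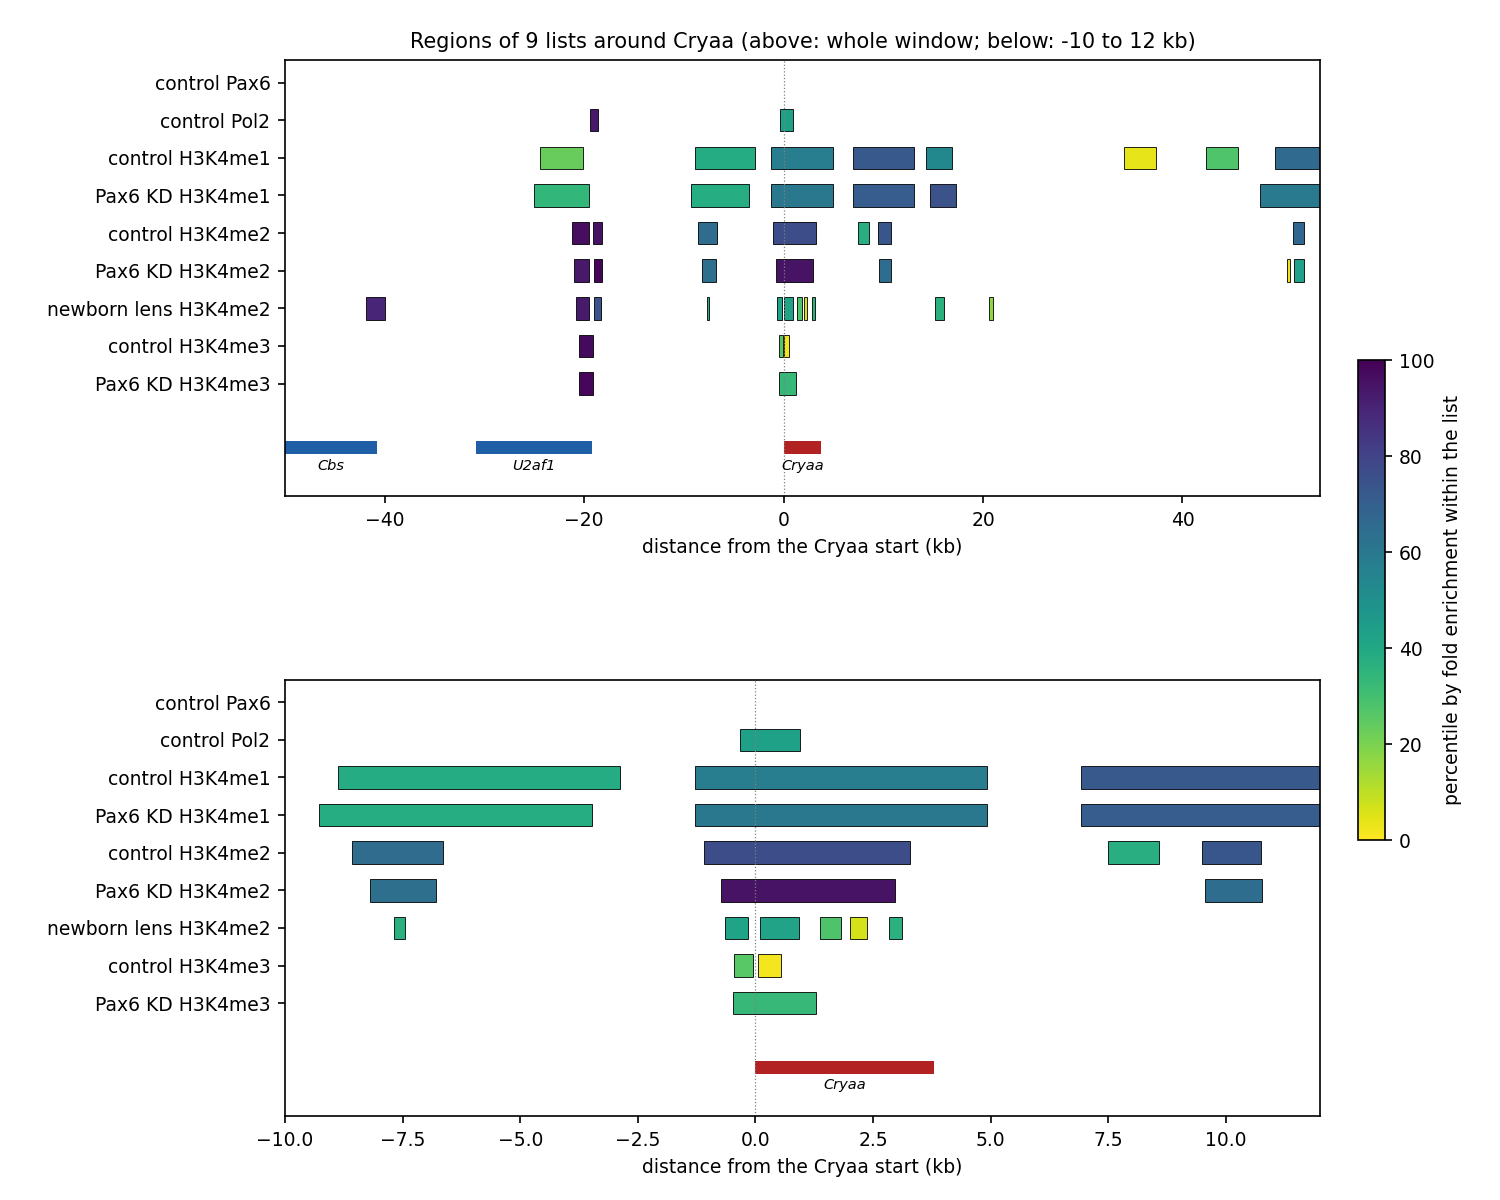
Regions of the 9 lists in the Cryaa window, by distance from the Cryaa start in kb, with the whole window above and 10 kb before to 12 kb after the start below. Bars are regions, coloured by the percentile of their fold enrichment within their own list, and the bottom bars are genes (red, plus strand; blue, minus strand). The αTN4 H3K4me2 lists have 1 long peak over Cryaa where the lens list has 5 short ones, and no Pax6 peak is present.

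The folds at Cryaa depended on what they were divided by. MACS2 divides the ChIP fragments at a summit by a local background, which is the largest of the genome-wide average and of averages over windows of the control library around the summit. The whole number of ChIP fragments and the background were recovered for each peak from its deposited fold and p. At the Cryaa promoter 97 Pol2 fragments stood over a background of 10.9, and the genome-wide background of the Pol2 list was 3.09. For control H3K4me2, 298 fragments, scaled by 0.462, stood over 9.0 where the genome-wide value was 3.03. For control H3K4me3, 71 fragments stood over 6.36 where it was 1.65. In these lists the local background at Cryaa was thus raised 3.53, 2.97 and 3.86 times.

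The KD lists gave the same direction. For KD H3K4me2, 143 fragments stood over 4.86, or 2.58 times the genome-wide 1.88. For KD H3K4me3, 76 fragments, scaled by 0.985, stood over 7.0, or 2.33 times the genome-wide 3.004. The lens list did not share the rise. Its strongest peaks at Cryaa had 20 fragments over 2.80, the genome-wide value of that list. In the 5 αTN4 lists, between 0.329% (control H3K4me2) and 1.25% (KD H3K4me2) of peaks had a higher local background than the Cryaa promoter.

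These backgrounds correspond to whole fragments of the control libraries. A background above the genome-wide one was a whole number of control fragments for 48.1% to 76.4% of peaks, depending on the list, since MACS2 takes the window of 1 fragment length where it is the highest. In control cells it was 11 control fragments at the Pol2 summit (95% exact Poisson interval 5.49 to 19.7), 9 at the H3K4me2 summit (4.12 to 17.1) and 13 at the H3K4me3 summit (6.92 to 22.2), against genome-wide averages of 3.12, 3.03 and 3.37. In KD cells it was 7 at both the H3K4me2 and the H3K4me3 summit (2.81 to 14.4), against 2.71 and 3.004. The intervals cover counting error only. The summits lie 163 to 279 bp before the start, inside the printed promoter, so these values overlap in sequence. The samples include 1 input of control cells and 1 of KD cells, and lists that used the same input are not independent.

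The strongest promoter peaks of the other genes starting in the windows showed no such rise. For Dixdc1 the strongest Pol2 and H3K4me2 peaks lay at starts outside the window. At the promoter of Cryab and Hspb2 the local background equalled the genome-wide one in 5 of the 6 lists, and in KD H3K4me2 it was 1.17 times as high. At U2af1 it was between 1.00 and 1.41 times. Promoter peaks of U2af1 with fewer fragments had 1.48 times in KD H3K4me2 and 1.58 times in lens. Of the 10071 protein-coding genes with a promoter peak in all 6 lists, 11 (0.109%) had a local background of at least 2 times the genome-wide one in all 5 αTN4 lists, and 8 of these, Cryaa among them, were under 1.5 times in lens. The others were Elovl4, Ttk and Bckdhb on chromosome 9 from 83672300 to 84017846, Ibtk, 9330154J02Rik and Tpbg on the same chromosome from 85580963 to 85740662, and Gosr2 on chromosome 11. Whether extra copies of sequence account for any of these values was not tested.

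**Figure D2:**
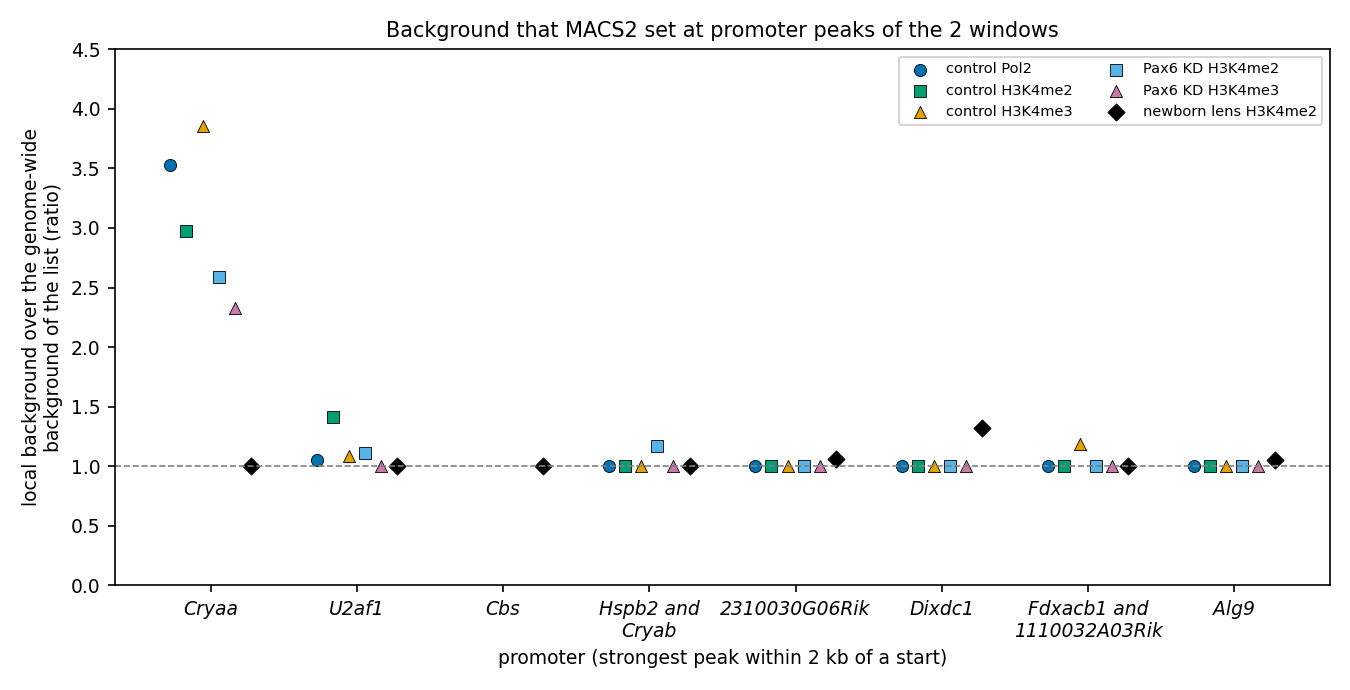
Local background at the strongest peak within 2 kb of a start, as a ratio to the genome-wide background of the same list. Genes are those starting in the windows, in the 6 lists where it was recovered. The Pol2 and H3K4me2 points of Dixdc1 are peaks at starts outside the window. Points are single libraries and the dashed line marks a ratio of 1. The 5 αTN4 points of Cryaa lie between 2.33 and 3.86, the lens point at 1.00, and no point of another gene exceeds 1.41.

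Ranked by fragments instead of folds, Cryaa stood higher in each of the 5 αTN4 lists. Its H3K4me2 peak was at the 99.9th percentile in control and in KD cells by fragments, and at the 76.9th and the 95.2nd by fold. By fragments its Pol2 peak was at the 88.2nd percentile, and its H3K4me3 peak at the 73.1st in control and the 72.1st in KD cells. The lens peak was at the 39.1st by fragments and the 42.1st by fold. At the promoter of Cryab and Hspb2 the 2 rankings differed by less than 5 percentile points in each of the 6 lists. The change in rank of the Cryaa H3K4me2 peak from control to Pax6 KD cells was 18.4 percentile points by fold and -0.05 points by fragments.

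**Figure D3:**
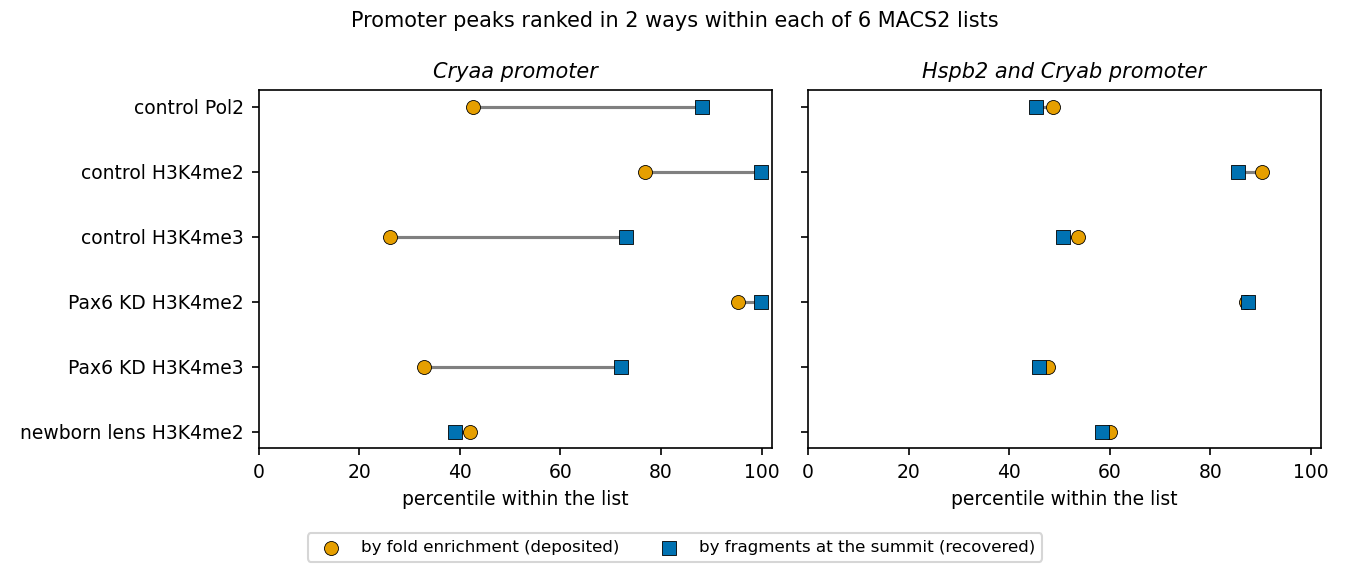
Percentile within the list of the promoter peak of Cryaa (left) and of Hspb2 and Cryab (right), in 6 MACS2 lists. Circles rank the peak by the deposited fold enrichment and squares by the recovered number of fragments at the summit. The gap is wide at Cryaa in Pol2, from 42.6 to 88.2, and narrow in lens.

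Around Cryaa, αTN4 and lens shared an upstream site. Lens had a 239 bp H3K4me2 peak 7685 to 7447 bp before the start, with 18 fragments and a fold of 5.003 at the 36.1st percentile. It lay inside a control peak of 1931 bp (fold 10.0, the 65th percentile) and a KD peak of 1404 bp (fold 10.3, the 63.7th). Both lay in an H3K4me1 island, which held 127 ChIP reads in control cells and 120 in KD cells. A distal control region upstream of Cryaa is known from work on lens expression.

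Of the 11 lens H3K4me2 peaks of the Cryaa window, 8 were overlapped by a control H3K4me2 peak (72.7%, 95% exact interval 39.0 to 94.0) and 3 were not, where 54.6% of all lens peaks were not. The 5 over the gene or just before its start are neighbours under 1 control peak and are not separate observations. Lens peaks without an H3K4me2 partner in the line lay at the Cbs promoter and 15.6 kb and 20.9 kb after the Cryaa start. The peak at 15.6 kb lay inside an H3K4me1 island of control and of KD cells. The Cbs promoter, 40.7 to 41.3 kb upstream (Cbs encodes cystathionine beta-synthase), had 94 fragments and a fold of 25.01 in lens, the 89.5th percentile, and no region of any αTN4 list. In the other direction 4 of 7 control peaks were overlapped by a lens peak and 3 were not, where 58.7% of all control H3K4me2 peaks were not. Those 3 lay 7.87 kb, 9.95 kb and 51.4 kb after the start. The 8 shared lens peaks were all matched to a control peak of higher rank by fold, where 15151 of all 25512 shared lens peaks were. The median difference was 34.8 percentile points, where that over all was 3.79 with quartiles of -7.13 and 17.6. The 5 over the gene or just before its start were matched to the same control peak, so they largely repeat 1 value.

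Cryab and Hspb2 stood under a common H3K4me2 domain. Their outermost starts are 404 bp apart on chromosome 9, Hspb2 at 50560459 on the minus strand and Cryab at 50560863 on the plus strand. The H3K4me2 peak was 6364 bp long in control cells, with 163 fragments and a fold of 18.9 at the 90.2nd percentile. It was 6179 bp long in KD cells, with 60 fragments and a fold of 19.1 at the 87.1st percentile. In lens the longest peak over both starts was 4043 bp, with 34 fragments and a fold of 9.22 at the 60th percentile. Fragment numbers are not on one scale between lists, since the median over all peaks was 65 in control cells, 23 in KD cells and 26 in lens. Hspb2 was covered along its whole length in the 3 lists and Cryab over 65.3%, 57.1% and 71.6%.

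H3K4me3 lay on either side of the divergent promoter and left the stretch between free. Control cells had 1 peak over Hspb2 (chr9:50558633-50560395, 48 fragments, fold 18.5, the 53.7th percentile) and 1 inside Cryab (chr9:50561355-50562865, 46 fragments, fold 17.7, the 51.3rd). The 959 bp between them held the start of Hspb2 and the first pair of the 3 Cryab starts. In KD cells the gap was 840 bp and the peaks had 50 and 43 fragments (folds 12.5 and 10.8, the 47.7th and 39.5th percentiles). The start of Hspb2 lay inside the KD peak over that gene and outside the control one, and the third Cryab start lay inside a peak in both. A further KD peak of 499 bp lay beyond the 3′ end of Hspb2. Pol2 filled the gap. Its peak (chr9:50560017-50561541) had 37 fragments and a fold of 9.29, the 48.6th percentile, and a second Pol2 peak of 891 bp with 33 fragments lay at the 3′ end of Hspb2.

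The neighbours of Cryab and Hspb2 had H3K4me2 at their promoters in the line and in lens. Dixdc1, 2310030G06Rik, 1110032A03Rik and Fdxacb1 (which share a divergent promoter) and Alg9 each had Pol2, H3K4me2 and H3K4me3 within 2 kb of a start in control cells, where 47.9%, 58.2% and 49.1% of all genes had them. Alg9 encodes a mannosyltransferase of protein glycosylation and Dixdc1 a component of Wnt signalling. In lens the peak at 1110032A03Rik and Fdxacb1 had 117 fragments (fold 31.1, the 98.2nd percentile) and that at Alg9 106 (fold 27.1, the 93.2nd), against 34 fragments at Cryab and Hspb2. Of the 12 lens peaks in this window 9 were overlapped by a control H3K4me2 peak (75%, 42.8 to 94.5) and 3 were not, where 54.6% of all lens peaks were not. The 3 without an H3K4me2 partner were a pair inside Dixdc1 and a 470 bp peak inside Cryab, 2.88 to 3.35 kb after its start. The fold of the 470 bp peak, 2.92, was at the 1.00th percentile over a local background raised 1.85 times. The peak inside Cryab and 1 of the pair lay inside a control H3K4me1 island. The other of the pair, ending at chr9:50532002, only met the edge of an island starting at chr9:50532001. The share of all lens peaks that met an H3K4me1 island was not counted. Of the 11 control peaks 9 were overlapped by a lens peak and 2 were not, where 58.7% of all control H3K4me2 peaks were not. Against Pax6 KD cells, 3 of 11 lens peaks around Cryaa and 3 of 12 around Cryab and Hspb2 had no H3K4me2 partner, where 56.7% of all lens peaks had none. Of the KD peaks, 3 of 7 and 1 of 10 had no lens partner, where 57.4% of all had none.

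**Figure D4:**
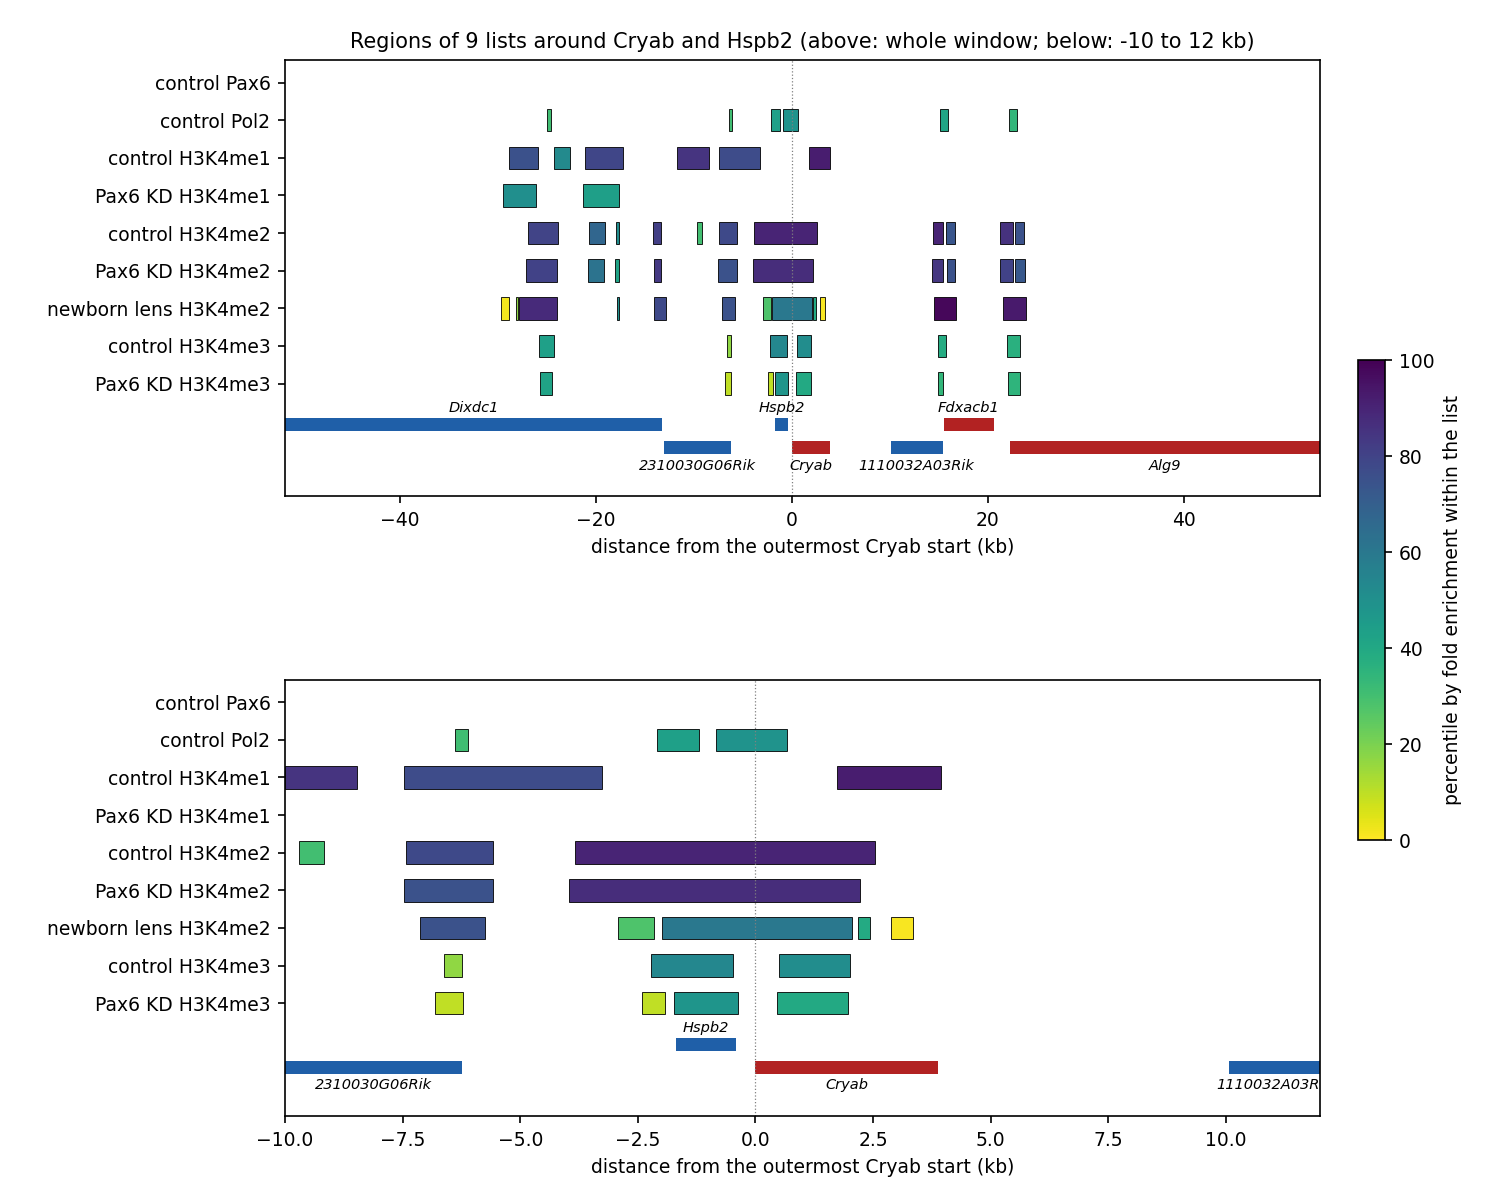
Regions of the 9 lists in the window of Cryab and Hspb2, by distance from the outermost Cryab start in kb, drawn as in the map of Cryaa. H3K4me2 spans both genes in the 3 H3K4me2 lists, H3K4me3 lies on either side of the starts, and no KD H3K4me1 island lies within 10 kb of the start, where control cells have one over Cryab.

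Control regions were compared with those of Pax6 KD cells. All 9 control H3K4me3 peaks of both windows were overlapped by a KD peak, where 10.1% of all control H3K4me3 peaks were not. Of the H3K4me2 peaks 1 of 7 around Cryaa and 1 of 11 around Cryab and Hspb2 had no KD peak, where 17.5% of all had none. These were a peak of 45 fragments 7.87 kb after the Cryaa start and a peak of 40 fragments inside 2310030G06Rik. Of the H3K4me1 islands 2 of 8 around Cryaa (25% of them) and 4 of 6 around Cryab and Hspb2 had no KD island, where 53.8% of all control islands had none. The exact 95% intervals of the kept shares, 34.9 to 96.8% and 4.33 to 77.7%, overlap widely and include the share over the whole list. In the reverse direction, 1 of the 17 KD H3K4me2 peaks, a weak one of 9 fragments 50.6 kb after the Cryaa start, had no control peak, where 7.34% of all had none, and every KD H3K4me1 island and H3K4me3 peak had one, where 6.93% and 2.65% of all had none.

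The lost H3K4me1 islands around Cryab included the one over the gene. This island (chr9:50562601-50564800) held 39 ChIP reads and 14 control-library reads in control cells and covered 55.2% of Cryab. Its fold of 5.93 was at the 92nd percentile. Its ChIP reads per kb were only at the 29.3rd percentile of the list, and its control-library reads per kb at the 2.54th. The others lay 7.46 to 3.26 kb, 11.7 to 8.46 kb and 24.3 to 22.7 kb before the Cryab start, with 65, 65 and 32 ChIP reads. The KD list has 18417 islands where the control list has 38007, so an island can fall out of the list by depth or threshold as well as by signal, which these lists cannot tell apart. The islands lost around Cryaa held 46 ChIP reads each and lay 34.1 to 37.3 kb and 42.3 to 45.5 kb after the start.

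The H3K4me1 island over Cryaa had the same boundaries in both conditions (chr17:31813601-31819800), as had the next one 6.92 to 13.1 kb after the start, where 1.30% of the 17559 kept islands had. The island over the gene held 197 ChIP reads in control cells and 123 in KD cells, a log2 ratio per kb of -0.37 once the median over kept islands was subtracted (95% interval -0.70 to -0.03, counting error only). Its control-library reads went from 111 to 69, a relative log2 ratio of -0.40 (-0.85 to 0.05). ChIP reads per control-library read were thus 1.77 in control and 1.78 in KD cells. The island at 6.92 to 13.1 kb held 174 and 157 ChIP reads, a relative log2 ratio of 0.16 (-0.16 to 0.48). Among the 6 kept islands of this window 1, that over the gene, was below the median change, and the median of the 6 was 0.13. The part of the control library in these ratios was not tested beyond the division given here.

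**Figure D5:**
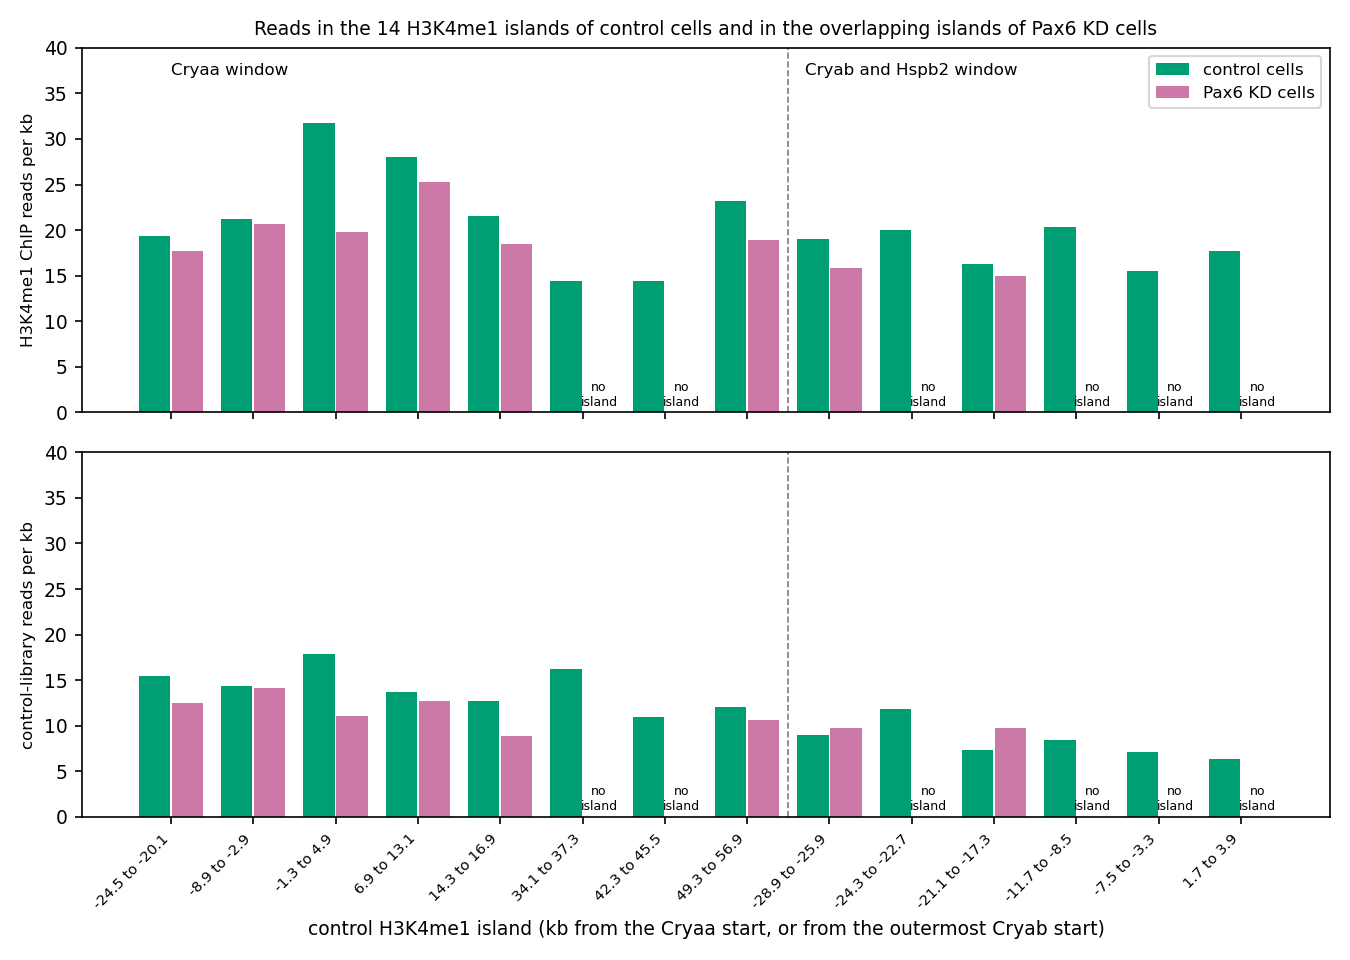
Reads per kb in the 14 H3K4me1 islands of control cells in both windows (green) and in the overlapping KD islands (pink), for the ChIP library above and for the control library of SICER below, 1 library per bar. The island over Cryaa, at 1.28 kb before to 4.92 kb after the start, is the highest of the control bars in both panels, and both its ChIP and its control-library reads are lower in KD cells.

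Ranks of kept peaks moved little around Cryab and Hspb2. The 10 kept H3K4me2 peaks changed by -9.59 to 2.20 percentile points by fold (median -3.18 by fold, -1.95 by −log10 q and -1.62 by fragments), where the median over 54644 kept peaks was -1.62 by fold, with quartiles of -9.23 and 5.97. All 6 H3K4me3 peaks were lower in KD cells, by 1.61 to 11.7 points, where 7831 of all 13362 kept peaks were lower. The median of the 6 was -5.20, where that over all was -1.80 with quartiles of -9.31 and 4.57. Around Cryaa the 6 kept H3K4me2 peaks changed by -24.7 to 18.4 points, with a median of -2.28 by fold, -1.07 by −log10 q and -1.08 by fragments. The 3 H3K4me3 peaks had a median of 6.91 by fold, 3.49 by −log10 q and 0.13 by fragments. The widest H3K4me3 change, 31.3 points, belonged to the weak peak after the Cryaa start, which was matched to the KD peak spanning both control peaks.

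The alpha-crystallin genes differed from the other crystallins in the line. Of 14 beta- and gamma-crystallin genes, none had Pol2 or H3K4me3 within 2 kb of a start in control αTN4 cells, where 47.9% and 49.1% of all genes had, and 3 (Cryba2, Cryba4 and Crybb1) had H3K4me2, where 58.2% had. In lens 9 of the 14 had H3K4me2, where 66.8% of all genes had, at percentiles from 11.3 (Crybb2) to 55.9 (Cryba2). In KD cells the same 3 had H3K4me2, where 57.1% of all genes had. Cryba4 and Crybb1, structural proteins of the lens fibre like the rest of the group, are neighbours and share their αTN4 regions. Cryaa, Cryab and Hspb2 thus had in the line the Pol2 and H3K4me3 that this group lacked there. At Cryaa these peaks may hold reads of the transgene, and Cryab and Hspb2 share theirs.

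Among the 11 small heat shock protein genes 8 had Pol2 and H3K4me3 in control cells, and 9 had H3K4me2 in control cells, in KD cells and in lens. Of all genes, 47.9% had Pol2 and 49.1% H3K4me3 in control cells, and H3K4me2 was at 58.2% in control cells, 57.1% in KD cells and 66.8% in lens. H3K4me3 was at the same 8 in KD cells, where 47.7% of all genes had it. Hspb7 and Odf1, proteins of heart and sperm tail, had no region in any list. Hspb3, a muscle form, had H3K4me2 alone. By fold, Hspb6 had the highest Pol2 percentile of the group, 97.4, and Hspb1, the widely expressed Hsp27, had 66.6. Cryaa had 42.6 by fold, over its raised local background, and 88.2 by fragments. Cryab and Hspb2 had 48.6 by fold and 45.4 by fragments. Ranks by fragments are not given for the rest of the group, so the order by fold may not hold for Cryaa. H3K4me1 was within 2 kb of 5 of them in control cells, where 36% of all genes had it, and of 2 (Hspb1 and Cryaa) in KD cells, where 16.7% had.

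The known regulators of these genes carried Pol2 and H3K4me2 in the line. Pol2 and H3K4me2 were present at all 12 regulators in the annotation in control cells, where 47.9% and 58.2% of all genes had them, and H3K4me2 at all 12 in KD cells and lens, where 57.1% and 66.8% of all genes had it. Pax6 was the sole one with a Pax6 peak within 2 kb of a start, where 0.255% of all genes had one. Peaks farther away were not counted here. The paper also assigns non-promoter peaks to genes within 50 kb, and it lists Prox1 among the genes bound by Pax6. The lens-specific heat shock factor Hsf4 had Pol2 at the 63.9th percentile and the broadly acting Hsf1 at the 91.9th. All 8 chaperones of the stress response, Hspa8 and Hsp90aa1 among them, had Pol2 and H3K4me2 in control cells, beside the same 47.9% and 58.2% of all genes.

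The labels of tissue and line were checked against marker genes by H3K4me2. Lens had it at 7 of 8 fibre markers and 4 of 4 epithelial markers, where 66.8% of all genes had it. Control αTN4 cells had it at 2 of 8 and 2 of 4, where 58.2% of all genes had it. Of the 5 lens lineage markers in the annotation (Pax6, Prox1, Maf, Hsf4 and Pitx3), all 5 had it in control cells and in lens, and 4 had Pol2 in control cells, where 47.9% of all genes had. The epithelial markers Foxe3 and Cdh1 had none in the line. Lens also had it at 1 of 3 markers of pigment cells (Dct), 2 of 3 of vessels (Kdr and Cdh5), both of muscle (Myod1 and Des) and none of blood (Ptprc), beside the same 66.8% of all genes. The part of other cells in the lens values was not tested, and a smaller share of marked cells and less signal per cell cannot be told apart in bulk chromatin.

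The genes closest to Cryaa in their 9 promoter percentiles by fold were Alkbh7, Jph2, Mal, Csgalnact2 and Hoxd8. Their distances were 36.0 to 40.4 percentile points, where the median over 22358 genes was 129. Those closest to Cryab were Wdr45, Vps4a, Ccdc102a, Zbtb45 and Nle1, at 16.7 to 22.9 points (median 126). The Cryaa Pol2 peak was at the 42.6th percentile by fold and the 88.2nd by fragments, and likeness by fragments was not computed. Each point is 1 library, and the likeness describes these lists only.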

How the data were processed

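ChIP-seq regions of αTN4 cells and newborn lens were analysed as deposited, in mm9. Per the paper's methods, the authors aligned reads with Bowtie and called Pax6, Pol2, H3K4me2 and H3K4me3 peaks with MACS2 and H3K4me1 islands with SICER, each at default settings. In the MACS2 lists the authors deposited a fold enrichment (a ratio over local background) and the −log10 of p and q. In the SICER lists they deposited the count of ChIP and control-library reads per island, a fold over the scaled control, a p-value and an FDR. Control libraries are not named in the lists.

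Folds were ranked within a list, and overlap means 1 bp. Starts are those of GENCODE vM1 protein-coding transcripts, and all regions lie within the 21 chromosomes of NCBIM37. Fragments and local background were recovered by searching the whole number of fragments k that gives both the deposited fold, (x + 1)/(background + 1), and p, with x being k times a library scale (tolerance 0.001 in −log10 p). This solved 98.9% to 100% of peaks in 6 MACS2 lists and was not applied to the Pax6 list. A background within 0.003 of a whole multiple was called whole. The search was tested on data simulated with the same formula, where every solved peak gave its true fragment number. That cannot show whether the deposited lists follow the formula. Read totals are not in the lists, so the depth of the libraries is unknown, and intervals (95%, exact) cover counting error only.

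The members and gene lists were chosen with earlier results of these data known. Named genes are the members, genes starting in the windows, listed genes with a region, and the 5 genes of the most alike promoter percentiles (Euclidean distance). Alternatives covered thresholds, overlap, flank, ranking and centring. The ranking by fragments was added after the data were seen. Some results on listed genes are not reported here. Tables were made with pandas 2.3.3 and SciPy 1.17.1 on NumPy 2.4.6 under Python 3.11.15, and plots with matplotlib 3.10.9.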

Additional observations from a re-analysis of the deposited data

How the results depend on the processing

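Of 70 recomputed values, 58 stayed within their limits, 8 moved and 4 changed sign. With a KD region within 1 kb also counted, the share of control H3K4me2 peaks kept around Cryaa was 100% instead of 85.7%. With the stricter threshold (−log10 q of at least 5), the share of lens peaks shared with control peaks around Cryab and Hspb2 was 100% instead of 75%. Ranked by −log10 q and by recovered fragments, the median change in rank of H3K4me2 peaks was -1.07 and -1.08 around Cryaa instead of -2.28, and -1.95 and -1.62 around Cryab and Hspb2 instead of -3.18. That of H3K4me3 peaks around Cryaa was 3.49 and 0.13 instead of 6.91. The H3K4me1 change over Cryaa was 0.022 (log2) as ChIP over control-library reads instead of -0.37. Without centring, the median over kept islands was -0.19 in both windows instead of 0.13 and 0.12, and as ChIP over control-library reads it was -0.43 around Cryab and Hspb2, from 2 islands. The cause of these shifts was not tested. No paired analysis was possible because each condition has 1 library and no result comes from a test. With 1 library per condition, no difference given here has a replicate check. For the MACS2 libraries no depth is known.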
